A study of Mus musculus with 8 samples.

Results

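The regions described here were stretches of the mouse genome beside the start sites of protein-coding genes where peaks of HTT (huntingtin) chromatin immunoprecipitation recurred in more than 1 library. All peaks of the 4 HTT ChIP libraries on chromosomes 1 to 19 were merged where they overlapped by at least 1 bp, and a merged region was kept when it held a peak from at least 2 libraries and its midpoint lay within 1 kb of an annotated start of a protein-coding gene (mm9, GENCODE vM1). This rule kept 2907 of 153005 merged regions. They were 21.0% (95% Wilson interval 20.3 to 21.7%) of the 13861 regions found in 2 or more libraries, and the other 10954 recurring regions lay farther from any such start. The members were thus selected on the presence of peaks in these same libraries, so the number of libraries and the nearness to a start are descriptions and not findings. Intervals are 95% Wilson intervals and cover counting error only.

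The tissue was cortex of male mice that were 4 months old when treated. The 4 groups were Htt+/+ mice without treatment, Htt+/+ mice given 500 µg of an antisense oligonucleotide (ASO, Ionis 444652) against Htt into 1 cerebral ventricle, HttQ111/+ mice without treatment and HttQ111/+ mice given the same ASO, and cortex of the injected side was taken 4 weeks later. HttQ111/+ mice carry a lengthened CAG tract, knocked in to the mouse gene, on 1 of their 2 Htt copies, so that normal and expanded HTT are both present. The ASO is directed at both forms, and the antibody (EPR5526) binds near the N-terminus of the protein. Per the labels the other mice had no treatment, and no group had a control injection, so an effect of the injection and an effect of the ASO cannot be told apart. Each group was 1 library made from pooled mice (per the labels 3, while the methods text gives a smaller pool), and there is therefore no test between groups and no p-value. Values given 4 in a row follow 1 order, with Htt+/+ mice (untreated, then ASO) ahead of HttQ111/+ mice (untreated, then ASO), and where a peak is named as missing the other 3 keep this order. Peaks do not measure RNA, so the tissue could not be checked against its marker genes.

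HTT is a large, mostly cytoplasmic scaffold protein that also enters the nucleus and binds transcription factors and chromatin-modifying complexes, among them REST and Polycomb repressive complex 2. Start sites of most mammalian genes lie in CpG islands, which are short stretches rich in G, C and the dinucleotide CpG. CpG islands are largely unmethylated and open in most tissues, whether or not the gene is transcribed, and those of developmental regulators are often held by Polycomb complexes in cells that do not use these genes. Start sites outside CpG islands, as those of olfactory receptor genes, are closed in most cell types.

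Sequences of the extremes show the range of base composition among members. In each line the 150 bases are given 5′ to 3′ on the strand of the gene, in mm9, with every CpG in capitals. Homer2, a postsynaptic scaffold gene, and Bcr, a RhoGEF and GTPase-activating protein, had the highest GC of all members (81.6% and 80.8% over 500 bp around the midpoint). Gm10722 and Gm10801, both predicted genes, were among the lowest (34.8% and 34.4%). Mms22l (DNA repair), Tmem50a (a membrane protein) and Pde8a (a cyclic AMP phosphodiesterase) had a peak in all 4 libraries. The windows shown are the bases just before the start site for Homer2 (chr7:88851812-88851961, minus strand, 25 CpG), Bcr (chr10:74523491-74523640, plus strand, 26 CpG), Mms22l (chr4:24423448-24423597, plus strand, 22 CpG) and Gm10722 (chr9:3000772-3000921, plus strand, 2 CpG). For Pde8a (chr7:88358225-88358374, plus strand, 21 CpG), Tmem50a (chr4:134470623-134470772, minus strand, 19 CpG) and Gm10801 (chr2:98502745-98502894, plus strand, 4 CpG) they are the bases around the mean peak summit. None of these windows overlapped an annotated exon.
Homer2: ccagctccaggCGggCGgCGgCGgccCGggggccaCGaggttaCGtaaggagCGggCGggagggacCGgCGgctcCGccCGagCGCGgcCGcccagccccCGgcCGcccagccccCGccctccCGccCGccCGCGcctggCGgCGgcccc
Bcr: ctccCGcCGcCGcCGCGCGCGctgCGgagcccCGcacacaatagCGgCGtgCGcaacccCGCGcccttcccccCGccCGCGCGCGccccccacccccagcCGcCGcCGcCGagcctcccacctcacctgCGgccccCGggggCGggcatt
Mms22l: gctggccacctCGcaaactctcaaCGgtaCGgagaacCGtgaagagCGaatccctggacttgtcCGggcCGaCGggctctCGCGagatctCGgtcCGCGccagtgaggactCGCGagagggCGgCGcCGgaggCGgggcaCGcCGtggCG
Pde8a: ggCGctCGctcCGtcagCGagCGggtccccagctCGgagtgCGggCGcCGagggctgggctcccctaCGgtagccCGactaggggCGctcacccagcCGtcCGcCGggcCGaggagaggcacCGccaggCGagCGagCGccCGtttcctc
Tmem50a: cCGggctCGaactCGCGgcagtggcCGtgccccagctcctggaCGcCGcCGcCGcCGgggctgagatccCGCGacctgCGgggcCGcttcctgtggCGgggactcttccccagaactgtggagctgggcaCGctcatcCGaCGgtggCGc
Gm10722: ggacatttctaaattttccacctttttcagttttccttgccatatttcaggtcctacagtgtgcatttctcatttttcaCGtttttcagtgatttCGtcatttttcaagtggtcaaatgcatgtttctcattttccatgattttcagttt
Gm10801: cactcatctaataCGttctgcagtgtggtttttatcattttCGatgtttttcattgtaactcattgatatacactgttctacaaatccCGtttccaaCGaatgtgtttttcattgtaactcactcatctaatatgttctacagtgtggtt
The first 5 windows hold 19 to 26 CpG in 150 bases. The windows of Gm10722 and Gm10801 hold 2 and 4. Within the Gm10801 window the run gtttttcattgtaactca occurs more than once. Both regions are among the deep exceptions described further down, where reads may be misplaced, and they do not stand for the other members.

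The members lay mostly downstream of the start site. The midpoint was upstream in 666 of 2907 regions (22.9%, 21.4 to 24.5%), at the start in 3 and downstream in 2238. The median midpoint was 172 bp downstream (quartiles 14 and 338.5 bp), and 64.7% of regions lay from the start to 500 bp past it. In 100 bp bins the share was highest from 100 to 200 bp, where 523 regions fell, against 270 (9.29%) in the last 100 bp before the start. Of the midpoints, 1801 (62.0%) fell in an annotated exon, 876 (30.1%) in an intron and 230 (7.91%) outside genes. Exon here includes the untranslated first exon, since any annotated exon was counted.

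**Figure D1:**
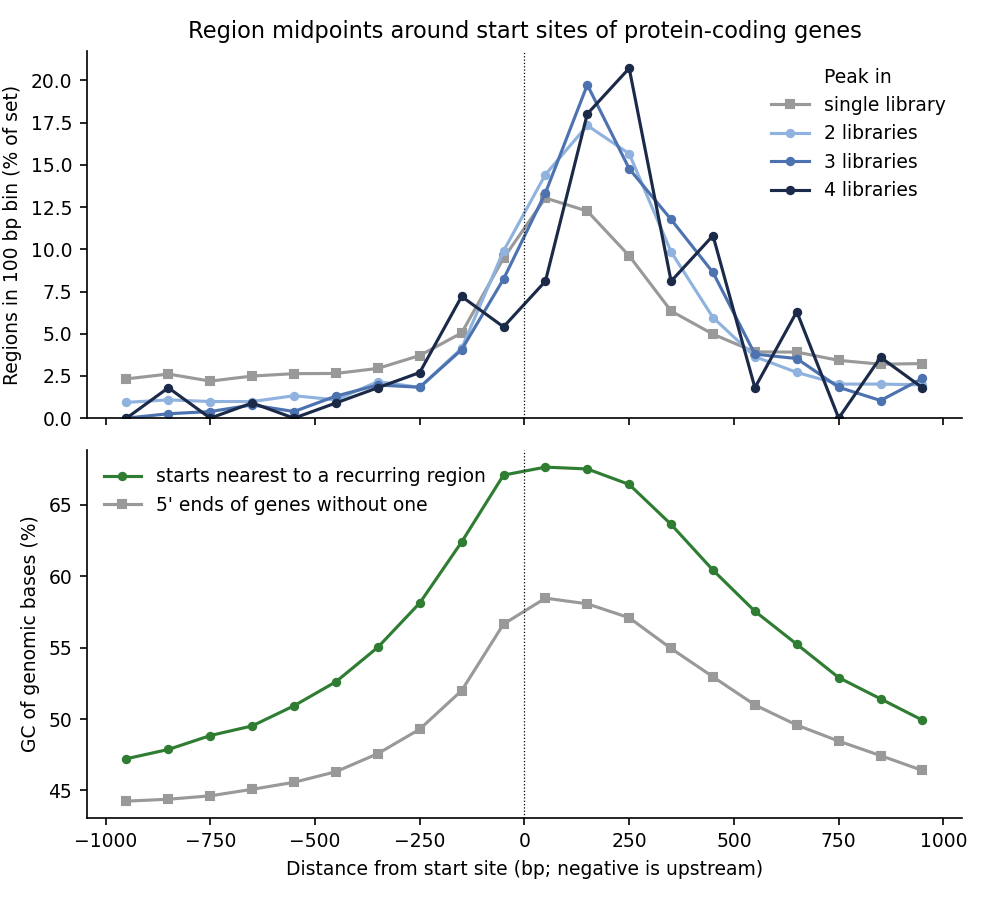
Top, share of region midpoints (percent of each set, y axis) in 100 bp bins from 1000 bp upstream to 1000 bp downstream of the nearest start (x axis), for regions with a peak in 1, 2, 3 or 4 libraries. Bottom, GC percent of the genomic bases in the same bins at starts nearest to a recurring region and at the 5′ ends of genes without one. Regions of 2 and 3 libraries peak from 100 to 200 bp downstream, those of 4 libraries from 200 to 300 bp, and GC at the region starts is highest from 0 to 100 bp (67.6%).

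Among members the side of the start was alike in the 4 libraries, which the rule favours, since members need overlapping peaks of at least 2 libraries. The upstream share, by the summit of each library's own peak, was 23.7% of 1892, 24.3% of 2048, 23.3% of 2320 and 25.9% of 541 members. These 4 sets share many members, so the shares are not independent and their likeness is not a finding. The median summit lay 167 to 196 bp downstream in each. Over all peaks near starts, recurring or not, HttQ111/+ ASO had a higher upstream share, at 37.2% (34.9 to 39.6%) of 1577 peaks, against 28.9% to 30.0% in the other 3, with intervals that do not overlap. Regions at start sites with a peak in a single library were placed less to 1 side: 3025 of 8384 (36.1%, 35.1 to 37.1%) were upstream. The upstream share was 24.4% (22.6 to 26.3%) for members in 2 libraries, 19.2% (16.6 to 22.2%) for those in 3 and 20.7% (14.2 to 29.2%) for those in 4, and the last of these intervals includes both other shares. Every annotated transcript start was used, and genes with more starts offer more places for a region to be near. With the 5′ end of each gene only, 2313 regions remained and the upstream share was 13.9%.

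Members were GC-rich. Over 500 bp around the midpoint the median GC was 69.6% (quartiles 63.2 and 73.2%) and the observed over expected CpG ratio had a median of 0.839. Recurring regions away from start sites had a median GC of 52.2% and a CpG ratio of 0.216, and regions at start sites with a peak in a single library had 57.2% and 0.411. The median GC was 68.6% for members in 2 libraries, 71.6% in 3 and 71.4% in 4. Libraries differed: members with a peak in HttQ111/+ ASO had a median GC of 64.6% and a CpG ratio of 0.710, against 70.4% and 0.855 for members without one. For the other 3 libraries the order was the opposite, with medians of 70.0% to 70.4% for members with a peak and 66.6% to 68.6% for members without. A member without a peak in 1 library must have peaks in at least 2 of the others. These contrasts therefore depend on the rule that chose the members and are not independent of each other.

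The share of genes with a region followed the GC of their start. A member lay within 1 kb of a start of 2948 of 21418 protein-coding genes (13.8%), of which 2790 had 1 region, 154 had 2, and 4 had 3 or 4 (2 genes each). When genes were put in 5 groups of like size by the GC of the 500 bp around their 5′ end, the shares from the lowest to the highest group were 3.76%, 7.47%, 11.1%, 17.4% and 29.1% (27.8 to 30.5%). The lowest group held genes up to 46.8% GC and the highest genes from 67.0%. For the CpG ratio the shares went from 4.27% to 26.3%. Longer genes had a region more often, from 8.22% in the shortest group to 21.1% in the longest, and this gradient was smaller among GC-rich starts. In the highest GC group 29.8% of genes longer than the median of 15.5 kb and 27.3% of shorter genes had one, with intervals that overlap, while in the lowest GC group the shares were 6.32% and 2.61%. By number of annotated starts the gradient was like that of length. The share was 8.59% and 10.7% in the lowest 2 groups, both with 1 start, and 20.6% in the highest (5 to 32 starts). A gene was counted when any of its starts was near a region, so the count itself favours genes with more starts. Length and number of starts were not separated. Genes with an opposite-strand gene start within 1 kb had a region in 15.7% of cases and other genes in 13.5%.

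The GC gradient was steep in 3 libraries and shallow in the fourth. The share of genes whose region held a peak of the library went, from the lowest to the highest GC group, from 2.57% to 19.96% and from 2.47% to 22.7% in the untreated and ASO libraries of Htt+/+ mice, and from 2.82% to 24.5% in untreated HttQ111/+ mice. In HttQ111/+ ASO it went from 1.10% (0.826 to 1.46%) to 3.90% (3.36 to 4.52%), and the highest 2 groups overlapped in their intervals. Among members, the distance between HttQ111/+ ASO and the other libraries was thus widest at the most GC-rich starts. Only peaks inside members were counted, and members need peaks from at least 2 libraries. The gradients therefore describe the members and not all peaks of a library.

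**Figure D2:**
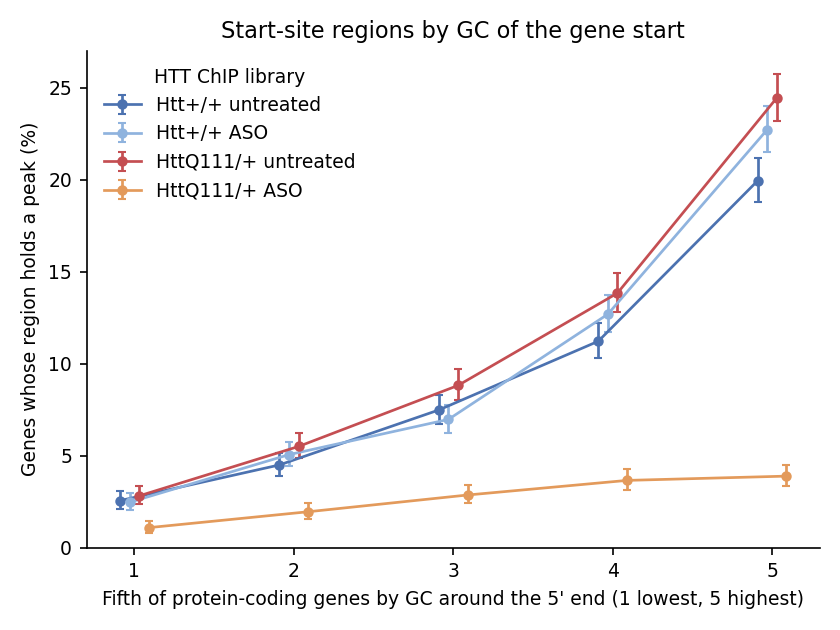
Share of protein-coding genes (percent, y axis) with a start-site region that holds a peak of the library, in 5 groups of genes ordered by GC around the 5′ end (x axis), with 95% Wilson intervals for counting error. Each line is 1 library. The lines of 3 libraries end at 19.96% to 24.5% and that of HttQ111/+ ASO at 3.90%.

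Of the members, 2031 (69.9%) had a peak in 2 libraries, 765 (26.3%) in 3 and the remaining 3.82% in all 4. Away from start sites these shares were 87.3%, 11.3% and 1.32%. By library a peak was present in 1892 (65.1%), 2048 (70.5%), 2320 (79.8%) and 541 (18.6%, 17.2 to 20.1%) of the members. Away from start sites the same libraries had a peak in 57.4%, 54.2%, 60.3% and 42.1% of recurring regions. HttQ111/+ ASO was therefore the library with the fewest peaks in both sets, and by a larger margin at start sites. The commonest pair among members in 2 libraries was Htt+/+ ASO with HttQ111/+ untreated (759 of 2031, 37.4%), which share neither genotype nor treatment, followed by both untreated libraries (612, 30.1%) and both Htt+/+ libraries (391, 19.3%). The pair of HttQ111/+ libraries made up 5.27%. Among members in 3 libraries, 604 of 765 (79.0%) lacked only HttQ111/+ ASO. The rule counts libraries, so these shares describe the members and are not tests.

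**Figure D3:**
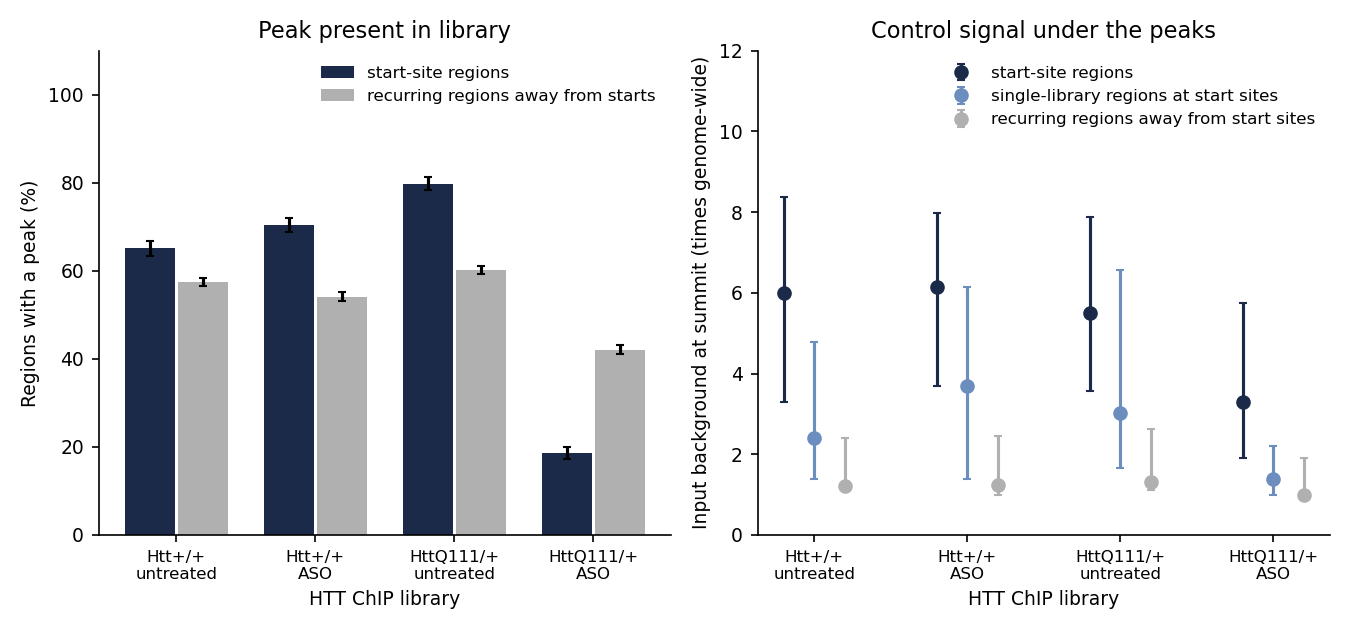
Left, share of regions with a peak in each library (percent, y axis) for start-site regions and for recurring regions away from starts, with 95% Wilson intervals. Right, input background at the peak summit as a multiple of the library's genome-wide background (y axis), as median and quartiles, for start-site regions, single-library regions at start sites and recurring regions away from starts. HttQ111/+ ASO has the lowest bar in both sets, and the background is higher at start sites in every library.

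The peaks of members were taller in reads but not in fold enrichment. From the deposited fold enrichment and p-value the whole number of ChIP reads at each summit could be recovered. The medians were 7, 8, 7 and 6 reads, with lower quartiles of 4 to 6 and upper quartiles of 9 or 10, against a median of 3 in each library away from start sites. At least 5 reads were present in 73.8% to 87.0% of members' peaks and in 20.7% to 26.4% of peaks away from starts. The median fold enrichment over input was 4.29, 4.36, 4.57 and 3.89, and 5.34, 4.96, 5.45 and 4.41 away from start sites.

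The input was also higher at these starts. The background that the peak caller took from the merged input under members' summits was, at the median, 5.99, 6.15, 5.51 and 3.30 times the genome-wide value. Away from start sites it was 1.21, 1.23 and 1.32 times in the first 3 libraries and equal to the genome-wide value in HttQ111/+ ASO, and at single-library regions beside starts 2.39, 3.69, 3.03 and 1.38 times. The peaks of members were thus called above an input, made without antibody, that was itself raised there. In an alternative chosen after seeing the data, only peaks with a background of at most 2 times the genome-wide value were used. This left 396 start-site regions among 8104 recurring regions, beside 2907 among 13861 with all peaks. Recurring regions on low input thus lay at start sites less often. Of the 396, 35.1% were upstream, and their median GC was 53.6%. The share at start sites, the side of the start and the GC therefore differed when only low input was used. What part the input had in them was not tested.

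Treatment and genotype were compared by the fold enrichment of each member, counting a missing peak as lower. In Htt+/+ mice 1297 of 2800 members with a peak in either library were lower with ASO (46.3%, 44.5 to 48.2%), beside 52.2% of all recurring regions. In HttQ111/+ mice 2242 of 2516 were lower with ASO (89.1%, 87.8 to 90.3%), beside 69.9% of all recurring regions. Most of the second count came from peaks absent after ASO: 1975 members had a peak only without treatment and 196 only with ASO, whereas in Htt+/+ mice the numbers were 752 and 908. Where both HttQ111/+ libraries had a peak, 267 of 345 (77.4%) were lower with ASO, with a median log2 ratio of fold enrichments of −0.44, beside 70.8% of all 2242 such recurring regions and a median of −0.31. Summit reads in these members came to 3276 with ASO and 3008 without, beside 12310 and 11208 in all such recurring regions. In reads over depth the median log2 ratio was −0.16 in members and −0.31 in all such recurring regions. The value −0.31 is what equal reads in both libraries give at their depths of 1.36 and 1.10 reads per kb. It thus stands for ties in whole reads, and the 2 medians are not ordered here. In Htt+/+ mice 545 of 1140 (47.8%) were lower, with a median log2 ratio of 0.02, beside 54.6% of 3719 recurring regions.

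Without treatment, 1064 of 2829 members were lower in HttQ111/+ than in Htt+/+ (37.6%, 35.8 to 39.4%), beside 42.4% of all recurring regions. After ASO, 1985 of 2295 were lower in HttQ111/+ (86.5%, 85.0 to 87.8%), beside 66.7%. The 2 comparisons that give shares above 85% both contain the HttQ111/+ ASO library, and with 1 library for each group a property of that library cannot be told apart from genotype and treatment together. The genome-wide background corresponded to a recovered depth of 1.12, 1.22, 1.10 and 1.36 ChIP reads per kb, although the labels state that ChIP libraries were down-sampled. What part depth had in these shares was not tested. Counted in reads over that depth, in members with a peak in both, the share lower with ASO was 61.4% in HttQ111/+ and 49.2% in Htt+/+ mice. Only peaks on low input background (at most 2 times genome-wide) were used in another alternative. Each peak was kept or dropped by the background of its own library, and a dropped peak counted as missing and so as lower. The share in Htt+/+ mice was then 56.7% of 356 regions, on the other side of an even split, and 67.8% of 332 in HttQ111/+ mice. For these alternatives the share over all recurring regions was not computed.

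Named members show the spread between libraries. Members with a peak in all 4 libraries were ranked by the smallest of their 4 fold enrichments, and the top 10 lay at Mrpl53, Gm17436, Tmem50a, Fbln1, Exoc3l2, Th, Pm20d2, Wdr33, Mms22l and Lats2. The region at Mrpl53, a gene for a mitochondrial ribosomal protein (chr6:83059103-83059577, midpoint 226 bp downstream, in an exon), had fold enrichments of 9.45, 9.21, 6.53 and 5.49. Both Htt+/+ values were the higher ones there. The region at Tmem50a (chr4:134470497-134470979, 192 bp downstream, in an intron) had 5.19, 7.27, 13.7 and 9.75, so that the HttQ111/+ values were the higher ones. At Th, which encodes tyrosine hydroxylase, the rate-limiting enzyme of catecholamine synthesis (chr7:150082206-150082600, downstream of the start, in an intron), the values were 8.11, 7.63, 6.43 and 5.03. The Th region was the least GC-rich of the 10, at 55.0%, with a CpG ratio of 0.133.

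The values at Pm20d2, an amidohydrolase gene, were 7.60, 7.16, 13.3 and 5.03, and those at Exoc3l2, related to exocyst subunits, were 8.94, 10.2, 5.84 and 5.07. HttQ111/+ ASO was the lowest library at 5 of the 10 regions by these values (Mrpl53, Exoc3l2, Th, Pm20d2 and Wdr33). At Fbln1, which encodes an extracellular matrix glycoprotein, the range was narrow in 3 libraries, at 6.94, 6.86 and 6.92, with 5.09 in Htt+/+ untreated. Lats2, a kinase of the Hippo pathway, had 4.53 in Htt+/+ untreated, 9.21 in Htt+/+ ASO, 5.84 and 5.97. These values rest on 3 to 13 reads at the summit, and the lowest was the 3 reads at Tmem50a in Htt+/+ untreated. They also keep the scale of each library, so an order of libraries by them was not tested.

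**Figure D4:**
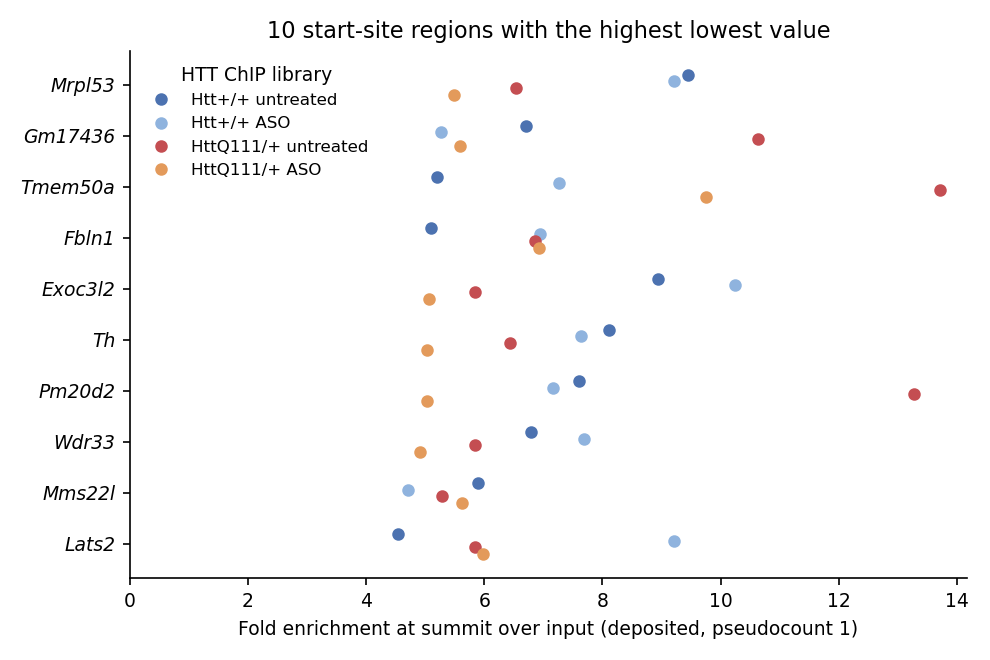
Deposited fold enrichment at the summit over input (x axis, linear) for the 10 start-site regions with a peak in all 4 libraries and the highest lowest value, 1 row for each gene and 1 point for each library. No library is highest or lowest throughout, and HttQ111/+ ASO is lowest at 5 of the 10.

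Gene functions were described with 28 lists of gene symbols, each read against the 13.8% of all protein-coding genes with a region and against the 29.1% in the highest GC group. For 10 lists the interval lay above the share of all genes and for 4 below it. With peaks of q below 0.01 (all genes 12.3%) the intervals of ion channels (15.6%) and neurotransmitter receptors (16.1%) no longer lay above that share, and the interval of the mitochondrial list no longer lay below it. The interval of synaptic adhesion, scaffold and vesicle genes lay above that share only under such alternatives. Among homeobox and other developmental transcription factors, 76 of 255 genes had a region (29.8%, 24.5 to 35.7%). They included Hox genes of all 4 clusters (Hoxa5, Hoxa9, Hoxa10, Hoxb5, Hoxc9, Hoxc10, Hoxd1, Hoxd3, Hoxd10), the eye and forebrain regulators Pax6, Otx1 and Otx2, and the POU factors Pou3f1, Pou3f2, Pou3f3, Pou4f1, Pou4f2 and Pou4f3. The region at Foxc2, a forkhead factor of mesoderm (chr8:123640205-123640567, 315 bp downstream), had fold enrichments of 4.29, 4.82 and 6.77 in the 2 Htt+/+ libraries and HttQ111/+ untreated and no peak in HttQ111/+ ASO. At Hoxa5 (601 bp downstream) the values were 4.30, 3.37 and 3.07, again with no peak in HttQ111/+ ASO. Zic4 (149 bp downstream) was the single gene of the list with a peak in all 4 libraries, at 6.96, 5.47, 4.23 and 3.07 on 2 to 4 reads. By library, 53, 55, 68 and 14 genes of the list had a peak. Genes named here without a value were picked after the members were known.

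Wnt, BMP, FGF, Notch and Hedgehog signalling, the secreted cues of patterning and their receptors, followed with 42 of 146 genes (28.8%, 22.0 to 36.6%), among them 9 Wnt ligands (Wnt1, Wnt5a, Wnt5b, Wnt7a, Wnt7b, Wnt9b, Wnt10a, Wnt10b and Wnt11). Of the 46 regions of this list 4 lay upstream of the start (8.70%, 3.43 to 20.3%), beside 22.9% of all members, and lists with higher upstream shares were chromatin modifiers (13 of 39, 33.3%) and developmental transcription factors (27 of 85, 31.8%, 22.8 to 42.3%). At Fgf20, a growth factor of midbrain dopamine neurons (15 bp downstream), the fold enrichments were 3.70, 3.75 and 3.05, with no peak in HttQ111/+ ASO. At Fgf11, an intracellular FGF-like protein, they were 6.66 in Htt+/+ untreated, 4.82 in HttQ111/+ untreated and 5.95 in HttQ111/+ ASO, with no peak in Htt+/+ ASO.

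G protein and cyclic nucleotide signalling had 37 of 138 genes with a region (26.8%, 20.1 to 34.8%). Of these genes 10 were phosphodiesterases, which break down cyclic AMP or cyclic GMP, and 4 genes had a region in all 4 libraries. Adcy3, an adenylyl cyclase that makes cyclic AMP (chr12:4133246-4133819, 130 bp downstream), had 8.49, 5.67, 4.39 and 3.80. Pde8a (chr7:88358067-88358514, 192 bp upstream) had 6.42, 9.10, 4.16 and 4.61, and Pde8b (77 bp downstream) had 5.22, 5.29, 6.22 and 2.77. HttQ111/+ ASO was the lowest library at Adcy3 and Pde8b but not at Pde8a.

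Other regulatory lists above the share of all genes were RNA processing and translation factors (59 of 273, 21.6%), protein kinases and phosphatases (62 of 291, 21.3%), neurotransmitter receptors (23 of 112, 20.5%), chromatin modifiers and Polycomb (36 of 179, 20.1%), voltage-gated and related ion channels (33 of 173, 19.1%), ubiquitin, proteasome and chaperone genes (99 of 522, 18.97%) and small GTPases and their regulators (53 of 288, 18.4%). Mapk14, the p38α stress kinase, had 6.67, 4.37, 4.33 and 3.16, and Ppp1r9b, the spine protein spinophilin, had 4.49, 4.21, 3.40 and 2.50. Both regions were highest in Htt+/+ untreated and lowest in HttQ111/+ ASO. Kcnn2, a calcium-activated potassium channel (239 bp upstream), had 4.996, 3.83, 6.16 and 4.70. Htr1d, a serotonin receptor, had 4.79, 3.97 and 5.12 and no peak in HttQ111/+ ASO, and Oprd1, the δ opioid receptor, had 5.55, 5.90 and 3.13 with no peak in Htt+/+ ASO. The glutamate receptor genes Grin1, Grin2a, Grin2b, Grin2c and Grin3b each had a region. Baz1b, a chromatin remodelling subunit (474 bp downstream), had 3.83, 5.62, 4.57 and 4.56, and Klhl21, a ubiquitin ligase adaptor (687 bp downstream), had 4.76, 6.12, 6.22 and 3.57. Rbm45, an RNA-binding protein (112 bp downstream), had 5.58, 10.2, 6.94 and 3.71, and Rab23, a GTPase of Hedgehog signalling (27 bp downstream), had 4.29, 3.12, 4.86 and 4.72.

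**Figure D5:**
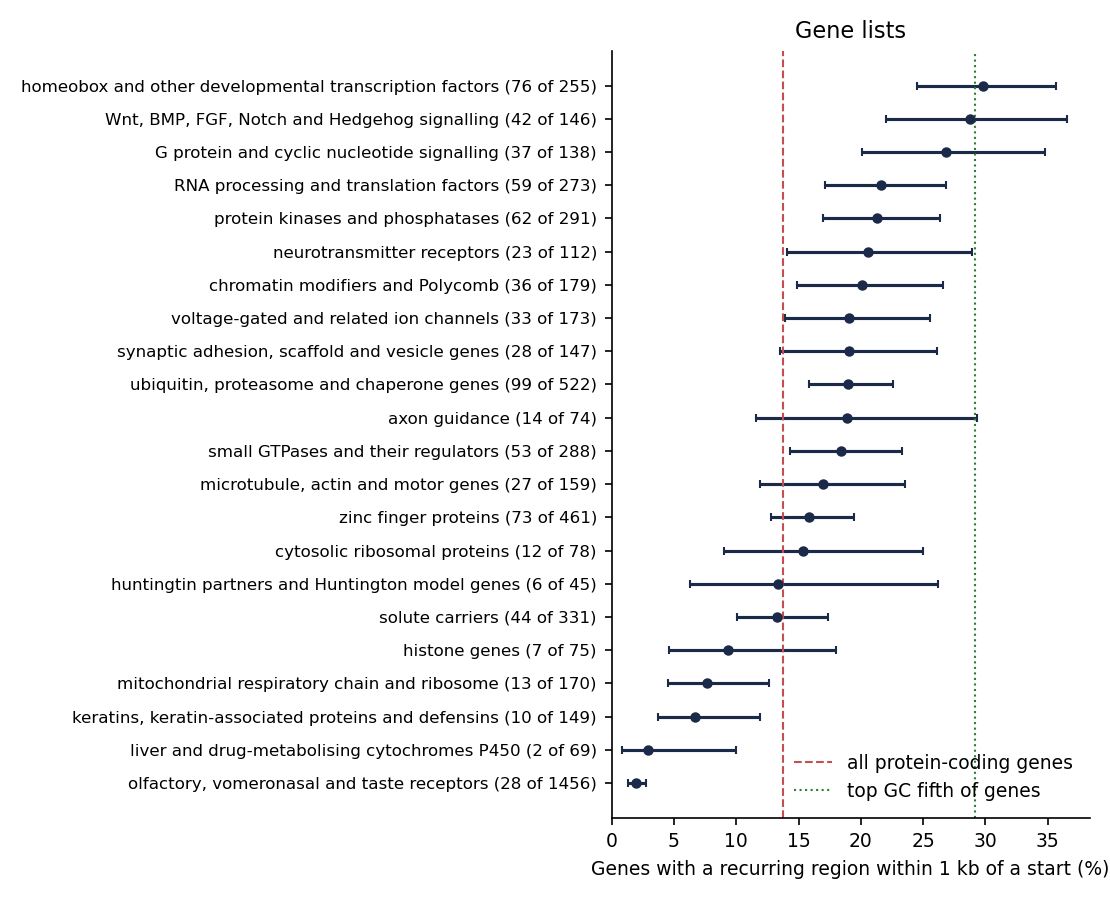
Share of each gene list with a recurring start-site region (percent, x axis) with 95% Wilson intervals for counting error, and the numbers of genes beside each name. The dashed line is the share of all protein-coding genes (13.8%) and the dotted line that of the highest GC group (29.1%). Developmental transcription factors are at 29.8% and chemosensory receptors at 1.92%.

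The intervals of further lists included the share of all genes when all peaks were used. These were axon guidance (14 of 74, 18.9%), synaptic adhesion, scaffold and vesicle genes (28 of 147, 19.05%), microtubule, actin and motor genes (27 of 159, 17.0%), zinc finger proteins (73 of 461, 15.8%), cytosolic ribosomal proteins (12 of 78, 15.4%), solute carriers (44 of 331, 13.3%) and histone genes (7 of 75, 9.33%). With q below 0.01 the interval of the synaptic list lay above that share (17.7%, 12.4 to 24.7%, all genes 12.3%). With 5 or more reads it also did (17.0%, 11.8 to 23.9%, all genes 11.0%). Vamp3, a vesicle SNARE (227 bp downstream, in an intron), had 6.58, 5.70 and 5.90 and no peak in HttQ111/+ ASO. Dlgap4, a postsynaptic scaffold gene, had 3.58, 4.69 and 3.66, and Nrxn2, a presynaptic adhesion gene (212 bp upstream of the nearest start), had 4.29, 4.07 and 4.39, both with no peak in HttQ111/+ ASO. Plxnd1, a semaphorin receptor (910 bp downstream), had 4.47, 3.54, 4.39 and 2.78. Dynll2, a dynein light chain, had 4.55, 3.80 and 3.94, and Rpl32, a ribosomal protein gene, 6.66, 5.55 and 11.0, both again with no peak in HttQ111/+ ASO. The solute carriers Slc30a9 and Slc9a2 had a peak in all 4 libraries, with 4.29, 5.12, 4.39 and 3.57 at the first and 7.17, 9.26, 8.04 and 2.87 at the second. Zfp598, a ribosome-associated ubiquitin ligase, had 4.06, 5.67, 4.39 and 3.79.

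Below the share of all genes were the mitochondrial respiratory chain and ribosome (13 of 170, 7.65%, 4.52 to 12.6%), keratins, keratin-associated proteins and defensins (10 of 149, 6.71%, 3.69 to 11.9%), cytochromes P450 of liver and drug metabolism (2 of 69, 2.90%, 0.799 to 9.97%) and olfactory, vomeronasal and taste receptors (28 of 1456, 1.92%, 1.33 to 2.77%). The median start GC of the mitochondrial list was 59.1%, above the 57.4% of all genes, while that of the chemosensory receptors was 38.4%. Uqcrh, a subunit of respiratory complex III, had 3.01, 3.67, 3.78 and 2.53 in a region that lay nearest to a start of the neighbouring gene Lrrc41. Histone, keratin-associated and receptor genes come in near-identical copies, among which short reads may be placed by chance, so their regions are uncertain one by one.

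Among genes with starts in the highest GC group the lists were spread widely, on smaller numbers of genes. Developmental transcription factors there had a region in 28 of 73 genes (38.4%, 28.1 to 49.8%), ion channels in 18 of 43 (41.9%, 28.4 to 56.7%), Wnt and related signalling in 23 of 70 (32.9%) and chromatin modifiers in 16 of 80 (20%, 12.7 to 30.0%), beside 29.1% of all genes in that group. The intervals of all 4 lists include that value.

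Genes tied to HTT and to Huntington's disease models did not stand out by number. Of 45 such genes 6 had a region (13.3%, 6.26 to 26.2%), namely Eed, Ncor1, Pde10a, Ppp1r1b, Rest and Taf4a, and none of these was in more than 2 libraries. Ncor1, a corepressor subunit (196 bp upstream), had 4.56 and 4.39 in the 2 Htt+/+ libraries. Pde10a, a striatal phosphodiesterase (106 bp downstream), had 2.92 and 5.61 in the same libraries, and Eed, a core subunit of Polycomb repressive complex 2 (39 bp upstream), had 6.61 in HttQ111/+ untreated and 3.12 in Htt+/+ ASO. All 6 genes had a peak in Htt+/+ ASO and 0 of the 6 in HttQ111/+ ASO, beside 72.6% and 19.6% of all genes with a region, so that these small counts set the list apart in neither library. Htt itself had 0 regions: 1 peak of Htt+/+ untreated lay 449 bp from its 5′ end, and the nearest peak of the other libraries was 10116 bp away or farther.

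Small lists of cell type markers gave counts too low to order. A region was present at 2 of 11 markers of cortical excitatory neurons (Cux2, Fezf2), 3 of 10 of inhibitory neurons (Dlx1, Dlx2, Slc32a1), 1 of 9 of astrocytes (Sox9), 2 of 9 of oligodendrocytes (Olig1, Gm98), 1 of 10 of microglia (Aif1) and 1 of 9 of endothelium (Abcb1a). Several of these are developmental transcription factors and were also counted there. At Slc32a1, the vesicular GABA transporter (414 bp downstream), the values were 6.74 in Htt+/+ ASO and 5.53 in HttQ111/+ untreated. At Sox9 they were 3.37, 5.12 and 6.14, with no peak in HttQ111/+ ASO.

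Short sequence motifs were searched as exact letters on both strands over 500 bp around the 2872 distinct starts nearest to members, and around the 5′ ends of all 21418 genes. The GC box GGGCGG, bound by SP and KLF factors, was found at 74.4% of region starts and 53.0% of all genes, and the TATA box TATAAA at 7.07% and 16.7%. The CCAAT box CCAAT was found at 33.8% and 47.8%. Within the highest GC group, genes with a region (n = 1248) and without one (n = 3036) had the GC box in 95.03% and 96.4% and the TATA box in 3.04% and 3.16%, so that these contrasts were small there. The CCAAT box was less frequent at genes with a region in this group, at 28.4% (25.9 to 30.9%) against 35.2% (33.5 to 36.9%). The group spans 67.0% to 86.4% GC and was not matched further, so a part of GC in this contrast was not tested. The other 6 motifs, for NRF1 (GCGCATGCG), ETS factors (CCGGAAG), the cyclic AMP response element (TGACGTCA), the E-box (CACGTG), YY1 (AAGATGGC) and the right side of the REST site (GGACAGCGC), were found at 1.88% to 15.1% of region starts and 1.14% to 14.5% of all genes. No motif holds another, though their ends can share bases. A match is a description of the letters and not a bound site.

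A few regions stood apart by depth. The deepest member lay at the predicted gene Gm10800 (chr2:98506750-98507501, named after its values were seen), with 286, 307, 280 and 337 reads at the summit and fold enrichments of 3.20, 3.21, 3.39 and 2.77. Gm10722 (chr9:3000262-3001191, near the start of the assembled chromosome) had 151, 137, 127 and 150 reads at the summit, with fold enrichments of 2.04 to 3.07. The 2 members at Gm10801 differed from each other: the first (chr2:98502407-98502893) had 53, 59 and 48 reads and fold enrichments of 1.61 to 1.92, with no peak in HttQ111/+ ASO, and the second (chr2:98503063-98503397) had 104, 107, 110 and 109 reads and fold enrichments of 4.95, 3.01, 5.28 and 4.03, above the median of members in 3 of the 4 libraries. Sfi1, a centrosomal gene, had 4 regions with 24 to 56 reads in each peak and fold enrichments of 1.68 to 3.65. Sema5b, a semaphorin, also had 4 regions, with 2 to 10 reads and fold enrichments of 2.90 to 10.9. No published list of artefact regions was applied here, whereas the paper excluded blacklisted regions from ENCODE. Reads in repeated sequence cannot be placed with certainty, and whether these deep regions are artefacts of mapping was not tested.

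At the edge of the rule, the members farthest from a start were at Gm5062 (1000 bp upstream, 2 libraries, fold enrichments 4.64 and 4.78) and Sft2d3 (993 bp downstream, 4.21 and 3.84). The nearest recurring regions just outside were at Fgf3 (1001 bp downstream), with a peak in all 4 libraries at 4.30, 3.14, 8.51 and 4.43, and at Mdm2 (1002 bp downstream), with 4.06 and 4.41 on 2 and 3 reads. Fgf3 was still counted among signalling genes, since another region of it, in 2 libraries, lay 104 bp downstream of a start.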

How the data were processed

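HTT ChIP-seq of mouse cortex was analysed in 4 libraries, 1 for each genotype and treatment. Per the labels, the authors made reads with bcl2fastq 2.17, aligned them to mm9 with HISAT2, down-sampled the ChIP libraries, used the 4 inputs together as 1 control, and ran MACS2 on each library alone. The methods text names mm10, and the deposited coordinates were read as mm9: 21.0% of recurring regions lay within 1 kb of an NCBIM37 start and 4.50% when the starts were moved by 500000 bp. The authors' deposited fold enrichment is a ratio of ChIP to input at the summit, with a pseudocount of 1 on both. The deposited −log10 p and −log10 q values come from the authors' peak caller, and the deposited score, 10 times −log10 p, was not used for any result. The 4 inputs themselves were not analysed here.

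Peaks numbered 44664, 41323, 47957 and 40505, and 79.6% to 87.3% of them rested on 2 to 4 reads, so a missing peak may be a low count. Whole ChIP reads and the input background at each summit were solved from the fold enrichment and p for 100% of peaks, within 0.01 of −log10 p. Reads carried no molecular identifiers. Regions were merged, placed and counted in Python 3.11.15 (pandas 2.3.3, scipy 1.17.1, pysam 0.24.0) and the steps were tested on simulated data. Gene lists were matched by symbol pattern. Named regions were the 10 in 4 libraries with the highest lowest fold enrichment, up to 3 in each list by libraries and reads, those nearest the 1 kb limit, the genes with most regions, the extremes of GC, and Htt. An item that this rule names is not reported here. Members and lists were chosen with earlier results of these data known.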

Additional observations from a re-analysis of the deposited data

Results flagged for a closer look

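The share of start-site regions lower with ASO fell on opposite sides of an even split in the 2 genotypes, but not on low input background. With ASO 46.3% of them were lower in Htt+/+ mice and 89.1% in HttQ111/+ mice, and HttQ111/+ was lower in 37.6% without treatment and in 86.5% after ASO. Both pairs share the HttQ111/+ ASO library, and neither difference was tested, since each group was 1 library. Fold enrichment was also not on 1 scale across libraries. On low input background the shares lower with ASO were 56.7% and 67.8%, on the same side, and in reads over depth they were 49.2% and 61.4%. These alternatives were not computed over all recurring regions. The low-background filter dropped peaks library by library, and a dropped peak counted as lower. What part this had in the change of side was not tested. The shares of all members count missing peaks, and peak presence also chose the members.

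Chromosome X was outside the regions described. The mice were male and so had a single copy of it, and what part this had in the share below was not tested. It held 29 start-site regions by the same rule, at 31 of 932 genes (3.33%, 2.35 to 4.68%), beside 13.8% on the autosomes and an upper limit of 0.322% that a count of 0 genes would allow.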

How the results depend on the processing

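The 2907 regions became 876 with at least 3 libraries, 3.82% of their number with all 4 and 396 with low input background, and their genes 937, 121 and 397. Leaving out 1 library gave 1422 (without HttQ111/+ untreated), 1669 (without Htt+/+ ASO), 1813 (without Htt+/+ untreated) and 2634 regions, with 1507 to 2696 genes, 21.7% to 22.3% upstream and a median GC of 69.8% to 70.4%. The upstream share was 19.7% with 5 or more reads, 19.4% with 3 or more libraries, 20.7% with 4, 13.9% with gene 5′ ends, 24.8% within 2 kb and 35.1% with low input background. Median GC was 71.1% over whole regions, 71.2% with 5 or more reads, 71.6% with 3 or more libraries, 71.4% with 4, 70.4% with 5′ ends, 70.2% within 500 bp, 68.6% within 2 kb and 53.6% with low input background. The shares with a peak were 74.2%, 82.3% and 15.5% in the last 3 libraries with 5 or more reads, 91.9%, 93.6%, 96.1% and 31.1% with 3 or more libraries, 68.4%, 78.2% and 21.1% in the last 3 within 2 kb, and 60.1%, 52.5%, 61.6% and 38.4% with low input background.

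The share lower with ASO in Htt+/+ mice was 49.2% in reads over depth, 42.8% when scaled to regions away from starts, 44.2% with 5 or more reads and 56.7% with low input background, where its side changed. In HttQ111/+ mice it was 77.4% with a peak in both, 61.4% in reads over depth, 86.6% scaled, 92.7% with 5 or more reads, 91.0% with 3 or more libraries, 86.7% within 2 kb and 67.8% with low input background. HttQ111/+ was lower without treatment in 40.1%, 41.3%, 42.7%, 39.6% and 43.3% (peak in both, reads over depth, scaled, at least 3 libraries, low input background). After ASO it was lower in 78.6%, 64.6%, 83.8%, 89.9% (at least 5 reads), 88.5% (at least 3 libraries), 83.5% (within 2 kb) and 66.6% (low input background). The low-background alternative was chosen after seeing the data, and a peak that its filter dropped counted as missing. The causes of these shifts were not tested. Of the gene list shares under alternatives, 50 moved by less than their interval and 6 by more. Of the 10 lists whose interval lay above the share of all genes, 8 kept that with q below 0.01 and 9 with 5 or more reads (neurotransmitter receptors lost it in both, ion channels in the first), and 3 of the 4 below kept it in both, without the mitochondrial list. The interval of the synaptic list, which included the share of all genes with all peaks, lay above it in both.

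No paired analysis was possible because each group was 1 library. Most peaks rest on 2 to 4 reads, so single regions are uncertain, and a peak missing from 1 library is not shown to be absent. The inputs, pool sizes and duplicates of reads could not be examined from peak lists.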
